A study of Mus musculus with 9 samples.

Results

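The genes described are 10 members of the interleukin-6, interleukin-10 and interleukin-12 cytokine families and their receptors: the ligand genes Il6, Lif, Osm and Il10, the subunit genes Il12a, Il12b, Il23a and Ebi3, and the receptor chain genes Il6st and Il10ra. They were chosen by name, as members of these families, with earlier results of these data known. All 10 were measured among 18193 genes. Each gene is represented by the probe set with the highest mean over the 9 arrays among those annotated with that symbol alone. The cells were bone marrow derived macrophages cultured from C57BL6 mice aged 6 to 12 weeks grown with L929 conditioned medium until day 5 and used on day 6 in vitro. The study examined gene expression while organotins activate the NLRP3 inflammasome, and set each organotin against saline. Every group was first primed for 3 h with lipopolysaccharide (LPS, an outer membrane component of bacteria) at 33 ng/mL. Then followed 6 h with TMT OH (trimethyltin hydroxide, 1.25 µM; group LPS+TMT), TET Br (triethyltin bromide, 10 µM; group LPS+TET) or sterile saline (group LPS). Each group holds 3 biological replicates with 1 Affymetrix array each. All groups received LPS, so the induction of these genes by LPS itself cannot be read from the arrays. The 2 organotins were given at different doses, and a comparison of their groups is one of the treatments as given, not of the compounds at 1 dose.

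The interleukin-6 family signals through gp130, the shared receptor chain encoded by Il6st, and the kinases and transcription factors of the JAK-STAT pathway. Interleukin-10 is a feedback cytokine of activated macrophages that restrains inflammatory gene expression through a receptor whose ligand-binding chain is encoded by Il10ra. The interleukin-12 family consists of paired subunits. The p40 subunit (Il12b) joins p35 (Il12a) to form interleukin-12 or p19 (Il23a) to form interleukin-23, and Ebi3 joins p28 to form interleukin-27. LPS-activated macrophages are a source of most of these cytokines, whose genes are known targets of NF-kB, a transcription factor switched on by LPS.

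Upstream windows of the RefSeq promoter table (build GRCm38.p6) matched 6 of the 10 genes with 7 windows. The 250 bases before the annotated start are shown for 4 genes that differed in their direction of change: Il6 and Il12b were lower in both organotin groups, Ebi3 was higher in LPS+TMT and lower in LPS+TET, and Il6st was lower in LPS+TMT and higher in LPS+TET. In LPS+TMT the call of Ebi3 was lost in 8 of 19 alternative settings and that of Il6st in 2 of 19. All 4 are on the plus strand and read 5′ to 3′, and capitals mark matches, on either strand, to the motifs named below.
Il6 (chr5:30012864-30013113): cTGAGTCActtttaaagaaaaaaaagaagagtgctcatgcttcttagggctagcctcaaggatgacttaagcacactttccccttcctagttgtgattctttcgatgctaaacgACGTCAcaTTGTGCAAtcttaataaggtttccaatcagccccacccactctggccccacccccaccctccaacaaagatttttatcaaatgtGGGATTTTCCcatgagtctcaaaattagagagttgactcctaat
Ebi3 (chr17:55952373-55952622): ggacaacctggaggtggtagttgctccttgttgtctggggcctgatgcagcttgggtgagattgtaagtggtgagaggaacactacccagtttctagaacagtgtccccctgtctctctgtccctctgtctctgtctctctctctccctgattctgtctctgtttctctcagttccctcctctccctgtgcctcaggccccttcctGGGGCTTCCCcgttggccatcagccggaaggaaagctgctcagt
Il12b (chr11:44399813-44400062): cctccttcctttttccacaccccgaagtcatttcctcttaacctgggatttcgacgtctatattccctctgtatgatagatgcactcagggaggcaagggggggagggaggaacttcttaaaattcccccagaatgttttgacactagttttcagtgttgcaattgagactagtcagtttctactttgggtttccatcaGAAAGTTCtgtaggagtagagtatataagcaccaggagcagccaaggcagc
Il6st (chr13:112463820-112464069): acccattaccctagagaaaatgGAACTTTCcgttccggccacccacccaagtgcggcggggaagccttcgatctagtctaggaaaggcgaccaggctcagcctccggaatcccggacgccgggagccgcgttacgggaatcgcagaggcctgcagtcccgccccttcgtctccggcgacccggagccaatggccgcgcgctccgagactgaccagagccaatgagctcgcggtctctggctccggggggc

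The motifs searched were the NF-kB consensus (GGGRNNYYCC), AP-1 (TGANTCA), the cyclic AMP response half-site (TGACGT) and C/EBP (TTGNNCAA). Also searched were the core of a heat shock element (GAANNTTC) and the TATA motif (TATAAA). R stands for A or G, Y for C or T and N for any base. A window without a match can hold a variant of a site, which was not searched. Only full matches to these spellings were counted. None of these matches overlapped another in the windows shown. Among 32851 windows of the same length, 7.25% held the NF-kB consensus, 6.75% AP-1, 6.47% the half-site, 5.65% C/EBP, 6.69% the heat shock core and 12.4% the TATA motif. The Il6 window held 1 match each to NF-kB, AP-1, the half-site and C/EBP. The Ebi3 window held 1 NF-kB match at -44 to -35 relative to the start, the same positions as the NF-kB match of Il6. The windows of Il12b and Il6st each held 1 heat shock core and none of the other motifs. Of the windows not shown, that of Lif held 1 NF-kB and 1 AP-1 match, and both windows of Il12a held no match. A match describes letters only, and no binding was measured.

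Values are log2 signals of the deposited table, differences are log2 fold changes, and errors of groups are SD with n = 3. Tests used limma with 1 mean per group over all 9 arrays, and a gene passed at a Benjamini-Hochberg adjusted p under 0.05 over 18193 genes. Array medians were 6.11 to 6.12 in LPS+TMT, 6.16 to 6.19 in LPS+TET and 6.08 to 6.09 in LPS. Interquartile ranges were 3.78 to 3.86 in LPS+TMT, 3.45 to 3.55 in LPS+TET and 3.83 to 3.88 in LPS. The narrower range of the LPS+TET arrays moves with every comparison of that group. Quantile normalization applied again gives all arrays the same distribution. With it, 7968 of all genes passed in LPS+TET against LPS (4323 higher and 3645 lower), against 9247 without it (4982 and 4265). Of the genes described, 9 passed there (3 higher and 6 lower), and Il10 was lost (-0.38, adjusted p = 0.0777). The part of the range in the gene lists, subunit differences, correlations and marker sums was not tested. The table carries no background level, so a fold with a group at low signal can understate the change. Whether the replicates came from separate mice is not stated, and p-values then measure only the spread between these samples. The signal of a culture does not tell fewer expressing cells from less RNA per cell.

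Most of the cytokine genes were lower in the organotin groups than in LPS. The falls were largest for Il23a, Il10 and Il12b in LPS+TMT, and the largest rise among the 10 genes was that of Osm in LPS+TET. In LPS+TMT, 9 of the 10 genes passed, against 27.8% of all genes. Of these 7 fell and 2 rose (13.4% and 14.3% of all genes), and Lif did not pass. In LPS+TET, 7 fell and 3 rose, so all 10 passed, against 50.8% of all genes (23.4% lower and 27.4% higher). The median log2 fold change of the 10 genes was -0.96 in LPS+TMT and -0.47 in LPS+TET, against 0.01 and 0.09 over all genes. Both comparisons share the 3 LPS arrays. The share of genes called is higher among brighter genes. A fit on the 9097 genes at or above the median brightness, 9 of the 10 genes among them, called 50.9% in LPS+TMT against LPS (24.2% lower and 26.7% higher) and 66.7% in LPS+TET against LPS (42.5% lower and 24.2% higher). In that fit 7 of the 9 genes were lower and 2 higher in each comparison. With each array centred on its median, 3742 of all genes were higher and 4782 lower in LPS+TET, against 4982 and 4265 without centring. Tested directly, 7 of the 10 genes were higher and 1 was lower in LPS+TET than in LPS+TMT (28.1% and 23.7% of all genes, and 51.8% in either direction). Among the brighter genes 26.0% were higher and 42.9% lower there, with 6 of the 9 genes higher and 1 lower. The arrays of LPS+TMT and LPS did not overlap for any of the 10 genes (2 above and 8 below, where 44.7% of all genes did not overlap, 23.7% above and 21% below). The same held for LPS+TET and LPS (3 above and 7 below, against 58.7% of all genes, 32.5% above and 26.1% below). LPS+TET and LPS+TMT did not overlap for 8 genes (7 above and 1 below, against 57% of all genes, 32.5% above and 24.5% below). Medians and overlaps were not computed among the brighter genes alone. The 10 genes took 5 orders across the groups, described below with the roles of the genes.

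**Figure D1:**
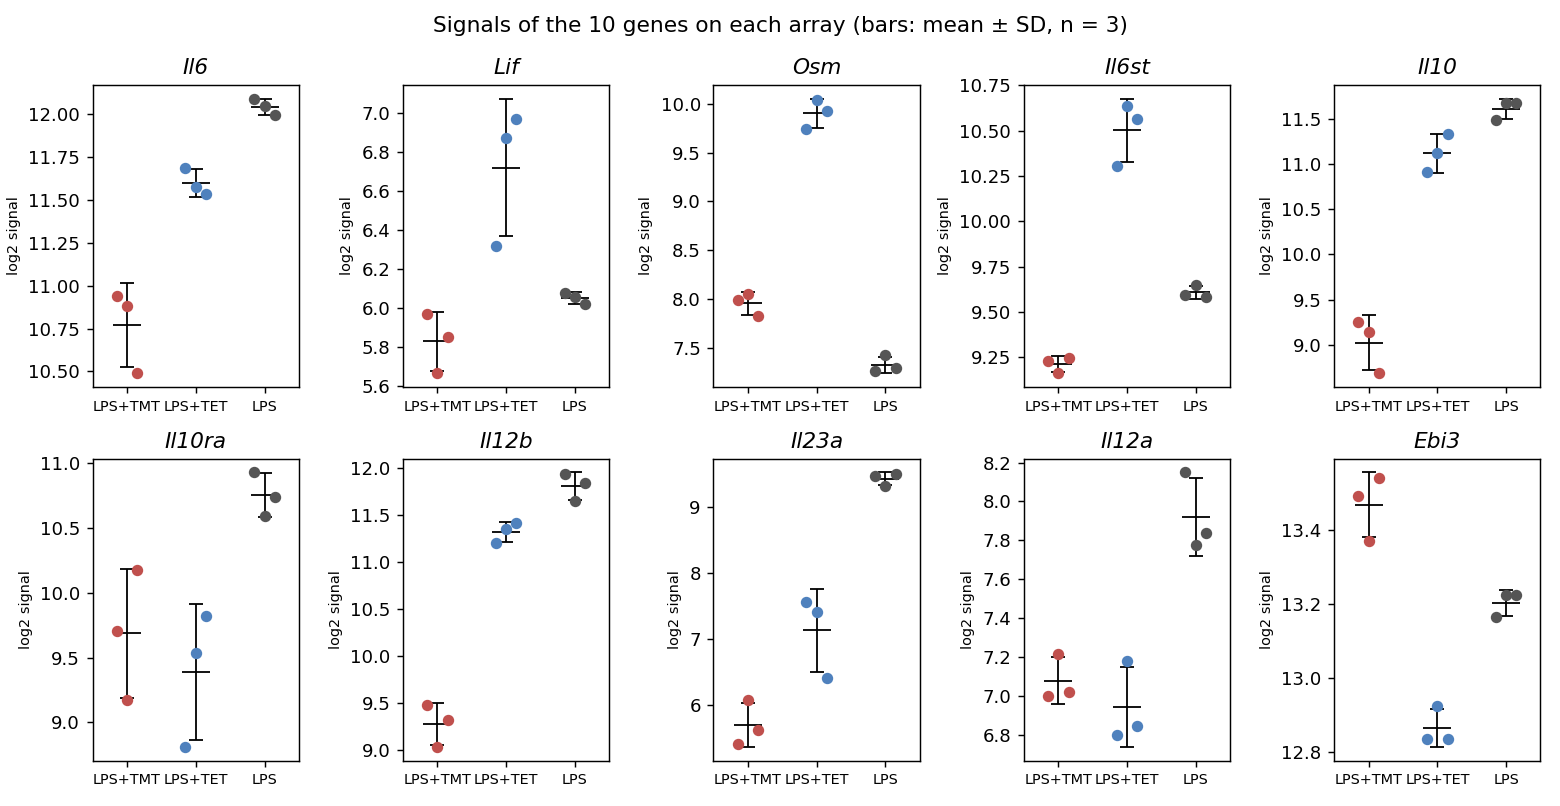
Log2 signal (vertical axes, a separate range for each gene) of the 10 genes on each array of LPS+TMT, LPS+TET and LPS, with points for arrays and bars for mean ± SD (n = 3). For Il6, Il10, Il12b and Il23a the LPS+TMT arrays are lowest and the LPS arrays highest, and for Osm the LPS+TET arrays, at 9.74 to 10.04, lie above all others.

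Il6 encodes interleukin-6, an inflammatory cytokine that drives the acute phase response. Its signal was 10.94, 10.88 and 10.49 in LPS+TMT, 11.69, 11.57 and 11.53 in LPS+TET, and 12.09, 12.05 and 11.99 in LPS (probe set 1450297_at). The 3 groups did not overlap and all 3 pairs passed. Il6 was 2.41-fold lower in LPS+TMT than in LPS (-1.27, SE 0.12, adjusted p = 2.61e-05). It was 1.36-fold lower in LPS+TET than in LPS (-0.44, 95% interval -0.71 to -0.18, adjusted p = 0.0116). LPS+TET lay 1.77-fold above LPS+TMT (0.83, SE 0.12, adjusted p = 0.000268).

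Osm encodes oncostatin M, a gp130 cytokine made by activated myeloid cells. Its signal was 7.99, 8.05 and 7.82 in LPS+TMT, 9.74, 10.04 and 9.93 in LPS+TET, and 7.26, 7.42 and 7.29 in LPS (probe set 1438767_at). The groups did not overlap, in the order LPS, LPS+TMT, LPS+TET from low to high. Osm was 1.55-fold higher in LPS+TMT than in LPS (0.63, SE 0.11, adjusted p = 0.00120). It was 5.99-fold higher in LPS+TET than in LPS (2.58, SE 0.11, adjusted p = 4.97e-08), number 226 from the top of the 18193 fold changes. LPS+TET was 3.87-fold above LPS+TMT (1.95, SE 0.11, adjusted p = 3.08e-07). Osm was the only gene of the 10 that passed as higher in both organotin groups.

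Lif encodes leukaemia inhibitory factor, another gp130 cytokine, and in the RefSeq annotation Osm and Lif are neighbouring genes on chromosome 11. The signal of Lif was 5.97, 5.67 and 5.85 in LPS+TMT, 6.32, 6.87 and 6.97 in LPS+TET, and 6.08, 6.06 and 6.02 in LPS (probe set 1421207_at). All arrays but 2 of LPS+TET were below the signal of the median gene, 6.82. Lif was 1.59-fold higher in LPS+TET than in LPS (0.67, SE 0.16, adjusted p = 0.00569) and 1.85-fold higher than in LPS+TMT (0.89, SE 0.16, adjusted p = 0.000983). In LPS+TMT against LPS it did not pass (-0.22, 95% interval -0.58 to 0.13, adjusted p = 0.381), although the 3 LPS+TMT arrays lay below the 3 LPS arrays. When all probe sets were tested, its second probe set gave the same directions (0.61, adjusted p = 0.0124 in LPS+TET, and -0.36, adjusted p = 0.163 in LPS+TMT).

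Il6st encodes gp130 itself. Its brightest probe set (1452843_at) read 9.23, 9.16 and 9.24 in LPS+TMT, 10.30, 10.64 and 10.56 in LPS+TET, and 9.59, 9.65 and 9.58 in LPS. The organotin groups lay on opposite sides of LPS without overlap. Il6st was 1.86-fold higher in LPS+TET than in LPS (0.89, SE 0.10, adjusted p = 4.52e-05) and 2.45-fold higher than in LPS+TMT (1.29, SE 0.10, adjusted p = 3.22e-06). The fall in LPS+TMT was 1.32-fold (-0.40, SE 0.10, adjusted p = 0.0127). It no longer passed without LPS replicate 2 (-0.38, adjusted p = 0.0511) or when the 4 probe sets were averaged (-0.43, adjusted p = 0.0528). All 4 probe sets had a positive difference in LPS+TET against LPS, from 0.20 to 1.24, of which 2 passed among all probe sets. In LPS+TMT against LPS all 4 were negative, from -0.25 to -0.71, but only the brightest passed among all probe sets (adjusted p = 0.0195). In LPS+TET against LPS+TMT all 4 passed, from 0.61 to 1.61.

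Il10, encoding interleukin-10, had 9.25, 9.14 and 8.69 in LPS+TMT, 10.91, 11.12 and 11.33 in LPS+TET, and 11.48, 11.67 and 11.68 in LPS (probe set 1450330_at). The LPS+TMT arrays stood more than 1 log2 unit below every other array. Il10 was 6.00-fold lower in LPS+TMT than in LPS (-2.59, 95% interval -2.94 to -2.23, adjusted p = 1.49e-06), number 53 from the bottom of the 18193 fold changes. In LPS+TET it was 1.41-fold lower than in LPS (-0.49, 95% interval -0.85 to -0.14, adjusted p = 0.0248). This call was lost without LPS replicate 2 (-0.46, adjusted p = 0.0758) and without LPS replicate 3 (-0.46, adjusted p = 0.0762). It was also lost without LPS+TET replicate 1 (-0.39, adjusted p = 0.0810) and without LPS+TET replicate 2 (-0.49, adjusted p = 0.0515). Quantile normalization applied again (-0.38, adjusted p = 0.0777) and array weights (-0.50, adjusted p = 0.0506) ended it as well. LPS+TET lay 4.26-fold above LPS+TMT (2.09, SE 0.16, adjusted p = 2.79e-06).

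Il10ra, encoding the ligand-binding chain of the interleukin-10 receptor, read 9.71, 9.18 and 10.18 in LPS+TMT, 8.81, 9.54 and 9.82 in LPS+TET, and 10.93, 10.59 and 10.74 in LPS (probe set 1448731_at). Both organotin groups lay below LPS and overlapped each other, with SDs of 0.50 in LPS+TMT, 0.52 in LPS+TET and 0.17 in LPS. Il10ra was 2.57-fold lower in LPS+TET than in LPS (-1.36, SE 0.28, adjusted p = 0.00253). Its 3 probe sets all passed as lower there, from -1.29 to -1.88. In LPS+TMT it was 2.09-fold lower (-1.07, SE 0.28, adjusted p = 0.0165). This call was lost without LPS replicate 1 (-0.98, adjusted p = 0.0659) and without LPS+TMT replicate 2 (-0.81, adjusted p = 0.0612). The other probe sets gave smaller differences in LPS+TMT (-0.41, adjusted p = 0.0280, and -0.46, adjusted p = 0.274), and the mean over probe sets gave -0.65. LPS+TET against LPS+TMT did not pass on the brightest probe set (-0.30, 95% interval -0.92 to 0.33, adjusted p = 0.394). Both other probe sets passed as lower in that comparison among all probe sets (-0.88, adjusted p = 0.000173, and -1.41, adjusted p = 0.00146). With the mean over probe sets Il10ra also passed there as lower (-0.86, adjusted p = 8.53e-05).

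Il12b, encoding the p40 subunit, had 9.48, 9.03 and 9.32 in LPS+TMT, 11.21, 11.35 and 11.41 in LPS+TET, and 11.94, 11.65 and 11.85 in LPS (probe set 1419530_at). The LPS+TMT arrays stood more than 1 log2 unit below the rest here too. Il12b was 5.79-fold lower in LPS+TMT than in LPS (-2.53, 95% interval -2.82 to -2.25, adjusted p = 4.70e-07), and its second probe set gave -2.33. In LPS+TET it was 1.40-fold lower than in LPS on the brightest probe set (-0.49, 95% interval -0.77 to -0.20, adjusted p = 0.0101). The second probe set did not pass there (-0.08, adjusted p = 0.626 among all probe sets), and the mean of both was smaller (-0.28, adjusted p = 0.0379). LPS+TET lay 4.13-fold above LPS+TMT (2.05, SE 0.13, adjusted p = 8.07e-07), with 2.26 on the second probe set.

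Il23a, encoding the p19 subunit, had 5.40, 6.07 and 5.62 in LPS+TMT, 7.57, 7.42 and 6.41 in LPS+TET, and 9.48, 9.33 and 9.51 in LPS (probe set 1419529_at). It fell furthest of the 10 genes in both organotin groups. In LPS+TMT it was 13.4-fold lower than in LPS (-3.74, 95% interval -4.35 to -3.13, adjusted p = 4.70e-06), number 6 from the bottom of the 18193 fold changes. In LPS+TET it was 4.95-fold lower (-2.31, 95% interval -2.92 to -1.70, adjusted p = 7.02e-05), number 65 from the bottom. LPS+TET replicates 1 and 2 lay about 1 log2 unit above LPS+TET replicate 3. The organotin groups did not overlap, and LPS+TET was 2.70-fold above LPS+TMT (1.44, SE 0.27, adjusted p = 0.00151). The LPS+TMT arrays were below the median gene, so the 13.4-fold value can understate the fall.

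Il12a, encoding the p35 subunit, had 6.998, 7.22 and 7.02 in LPS+TMT, 6.80, 7.18 and 6.85 in LPS+TET, and 8.15, 7.78 and 7.84 in LPS (probe set 1425454_a_at). Both organotin groups lay below LPS and overlapped each other. Il12a was 1.79-fold lower in LPS+TMT (-0.84, SE 0.14, adjusted p = 0.000887) and 1.97-fold lower in LPS+TET (-0.98, SE 0.14, adjusted p = 0.000196). LPS+TET and LPS+TMT were not separated (-0.14, 95% interval -0.44 to 0.17, adjusted p = 0.416).

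Ebi3 encodes a subunit related to p40. Its signal was 13.49, 13.37 and 13.54 in LPS+TMT, 12.84, 12.92 and 12.84 in LPS+TET, and 13.16, 13.22 and 13.22 in LPS (probe set 1449222_at). The groups did not overlap, and LPS lay between the organotin groups, in the reverse of the order seen for Il6st. Ebi3 was 1.27-fold lower in LPS+TET than in LPS (-0.34, SE 0.08, adjusted p = 0.00690) and 1.52-fold lower than in LPS+TMT (-0.60, SE 0.08, adjusted p = 0.000180). The rise in LPS+TMT against LPS was 1.20-fold (0.27, SE 0.08, adjusted p = 0.0381). It was lost without LPS replicate 1 (0.25, adjusted p = 0.127), LPS replicate 2 (0.28, adjusted p = 0.0885) or LPS replicate 3 (0.28, adjusted p = 0.0911). It was also lost without LPS+TMT replicate 1 (0.25, adjusted p = 0.119) or LPS+TMT replicate 3 (0.23, adjusted p = 0.130). With each array centred on its median (0.24, adjusted p = 0.0622) or all probe sets tested (adjusted p = 0.0566) it did not pass either.

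**Figure D2:**
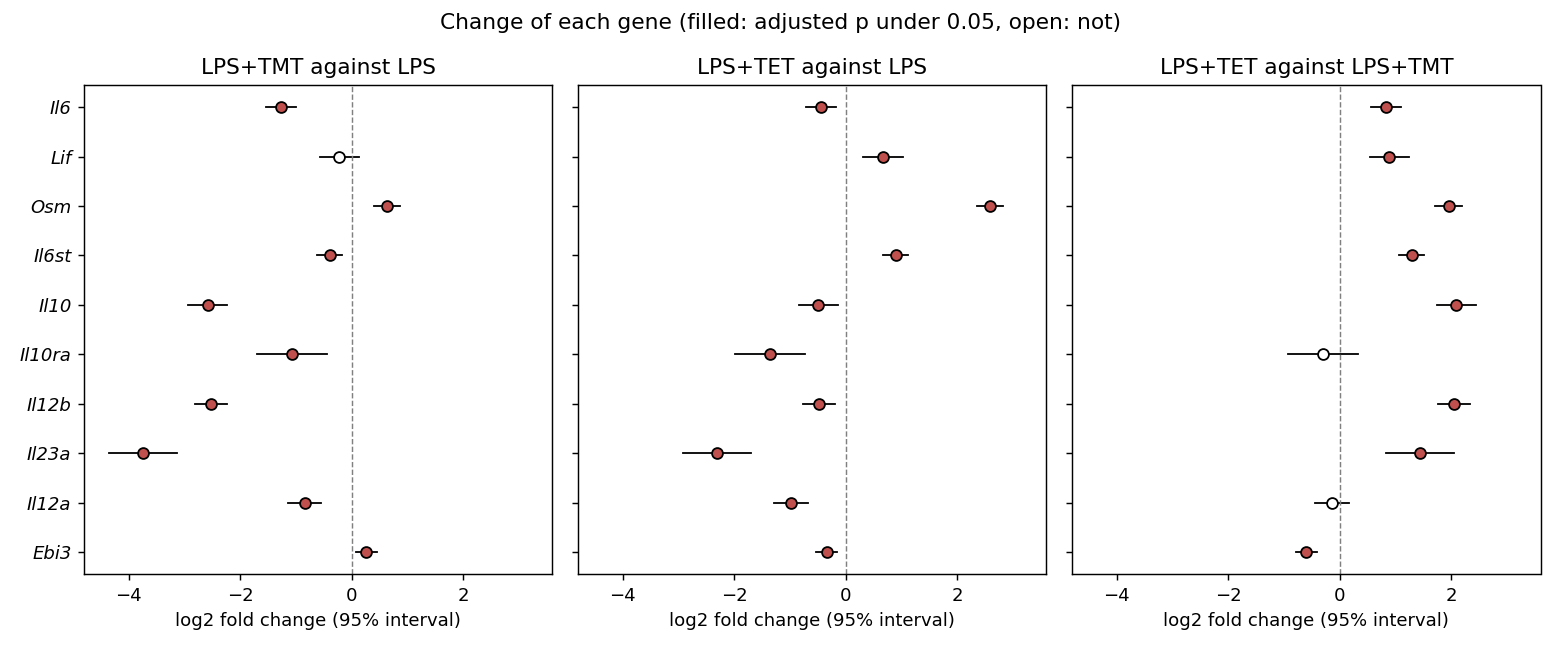
Log2 fold change (horizontal axis) with its 95% interval for the 10 genes in LPS+TMT against LPS, LPS+TET against LPS and LPS+TET against LPS+TMT, filled where the adjusted p was under 0.05. Il23a lies farthest left in both comparisons with LPS (-3.74 and -2.31), and Osm farthest right in LPS+TET (2.58).

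**Figure D3:**
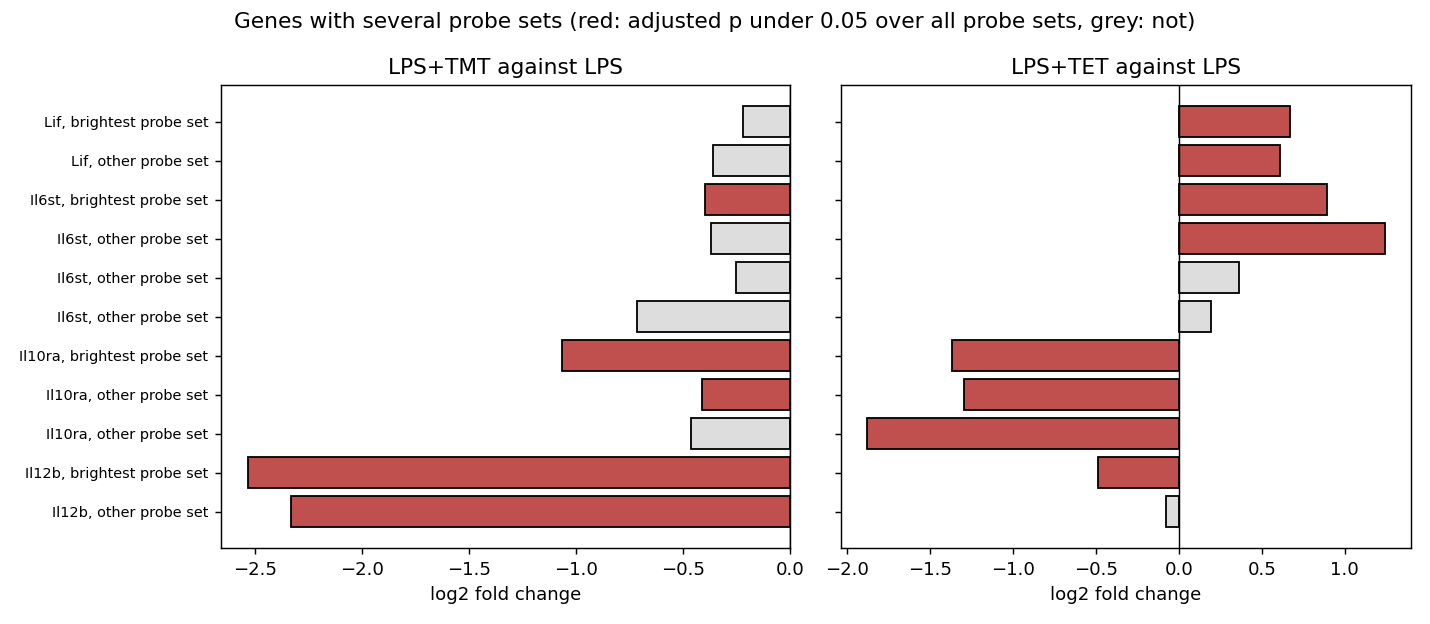
Log2 fold change of every probe set of Lif, Il6st, Il10ra and Il12b in LPS+TMT against LPS and LPS+TET against LPS, red where it passed among all probe sets. The probe sets of a gene point the same way in each comparison, and the 2 probe sets of Il12b differ in size in LPS+TET (-0.49 and -0.08).

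Since the subunits act in pairs, their differences were also taken within each array. The level of such a difference has no meaning, because probe sets differ in brightness, and only its change between groups is read. Each gene was taken from its brightest probe set. For Il12b this gave -0.49 in LPS+TET against LPS, where the second probe set gave -0.08. Differences with the second probe set were not computed, so the LPS+TET changes of differences with Il12b depend on this choice. Il23a minus Il12b averaged -3.58 ± 0.57 in LPS+TMT and -4.19 ± 0.72 in LPS+TET, against -2.37 ± 0.07 in LPS. The difference was thus changed by -1.21 in LPS+TMT and by -1.82 in LPS+TET, with no overlap with LPS in either group (exact two-sided permutation p = 0.1 each, the smallest that 3 arrays against 3 allow). Il12a minus Il12b averaged -2.20 ± 0.34 in LPS+TMT and -4.38 ± 0.20 in LPS+TET, against -3.89 ± 0.11 in LPS. It was changed by 1.69 in LPS+TMT and by -0.49 in LPS+TET, without overlap (exact permutation p = 0.1 each). Il23a minus Il12a averaged -1.38 ± 0.22 in LPS+TMT and 0.19 ± 0.60 in LPS+TET, against 1.52 ± 0.17 in LPS. Among the LPS arrays this difference was highest, and none of the 3 groups overlapped (exact permutation p = 0.1 for each pair). Ebi3 minus Il12b was 2.80 higher in LPS+TMT than in LPS without overlap (exact permutation p = 0.1). In LPS+TET it overlapped LPS (0.15, exact permutation p = 0.2).

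**Figure D4:**
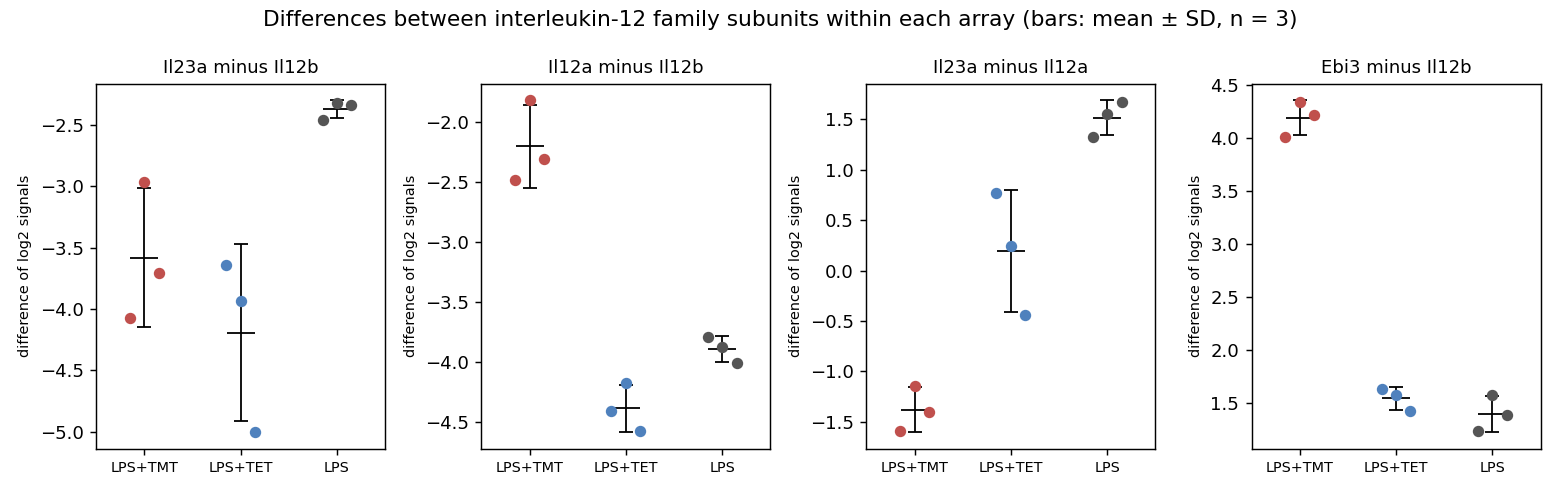
Differences of log2 signals between pairs of interleukin-12 family subunits within each array (vertical axes), with points for arrays of LPS+TMT, LPS+TET and LPS and bars for mean ± SD (n = 3). Il23a minus Il12b is lower in both organotin groups than in LPS, and Il12a minus Il12b is higher in LPS+TMT and lower in LPS+TET.

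Other receptor chains passed in both directions. Of 13 measured chains of the 3 families, 3 rose and 3 fell in LPS+TMT, and 5 rose and 4 fell in LPS+TET (median log2 fold changes -0.04 and 0.28). Over all genes, 14.3% rose and 13.4% fell in LPS+TMT, and 27.4% rose and 23.4% fell in LPS+TET. With so few chains, the counts are not read as a result about them. Il6ra, encoding the interleukin-6 binding chain that pairs with gp130, had 10.77, 10.67 and 10.86 in LPS+TMT, 9.88, 9.61 and 9.61 in LPS+TET, and 9.04, 8.95 and 8.94 in LPS. It was 3.45-fold higher in LPS+TMT (1.79, SE 0.10, adjusted p = 9.44e-07) and 1.65-fold higher in LPS+TET (0.72, SE 0.10, adjusted p = 0.000213), with the groups in the reverse of their order for Il6. Il10rb, encoding the second chain of the interleukin-10 receptor, rose by 0.44 in LPS+TMT (adjusted p = 0.00171) and fell by 0.28 in LPS+TET (adjusted p = 0.0131). Il12rb1, encoding the receptor chain that binds p40, rose by 0.70 in LPS+TMT (adjusted p = 0.000531) and by 0.33 in LPS+TET (adjusted p = 0.0234). Lifr, the receptor gene for leukaemia inhibitory factor, fell by 1.29 in LPS+TMT (adjusted p = 0.000570) and by 1.02 in LPS+TET (adjusted p = 0.00155), with its mean signal in every group below that of the median gene. Il20rb, encoding a receptor chain for interleukin-20 cytokines, fell by 0.59 in LPS+TMT (adjusted p = 0.000251) and by 0.50 in LPS+TET (adjusted p = 0.000422).

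Of 6 other measured ligands of the families, 1 fell and 0 rose in LPS+TMT, and 1 fell and 1 rose in LPS+TET (median log2 fold changes -0.05 and 0.23). Over all genes, 13.4% fell and 14.3% rose in LPS+TMT, and 23.4% fell and 27.4% rose in LPS+TET. Clcf1, encoding a gp130 cytokine, had 7.69, 7.96 and 7.39 in LPS+TMT, 7.15, 7.52 and 7.80 in LPS+TET, and 9.30, 9.48 and 9.54 in LPS. It was 3.38-fold lower in LPS+TMT (-1.76, SE 0.18, adjusted p = 4.45e-05) and 3.87-fold lower in LPS+TET (-1.95, SE 0.18, adjusted p = 1.27e-05). Il31 rose by 0.37 in LPS+TET (adjusted p = 0.0207), at a mean signal of 3.72 in LPS+TET against 3.34 in LPS. Il20 and Il24, of the interleukin-10 family, did not pass in either group (0.20 and 0.27 in LPS+TET).

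In the JAK-STAT pathway, 7 of 16 measured genes fell and 2 rose in LPS+TMT, and 11 fell and 1 rose in LPS+TET (median log2 fold changes -0.24 and -0.61). Over all genes, 13.4% fell and 14.3% rose in LPS+TMT, and 23.4% fell and 27.4% rose in LPS+TET. At or above the median brightness, 24.2% fell and 26.7% rose in LPS+TMT, and 42.5% fell and 24.2% rose in LPS+TET. Stat3, the main transcription factor of gp130 and interleukin-10 signalling, was the gene of this list that rose in LPS+TET, by 0.74 (SE 0.09, adjusted p = 0.000107). Its arrays read 12.22, 11.94 and 12.05 in LPS+TMT, 12.84, 12.75 and 12.72 in LPS+TET, and 12.04, 12.05 and 12.01 in LPS. It gave 0.04 in LPS+TMT (adjusted p = 0.849). Stat4, the factor of interleukin-12 signalling, fell by 0.67 in LPS+TMT (adjusted p = 0.0166) and gave -0.39 in LPS+TET (adjusted p = 0.0900). Stat5a and Stat5b, whose factors act downstream of growth factor cytokines, fell by 1.98 and 1.31 in LPS+TMT and by 1.23 and 1.63 in LPS+TET. Cish, encoding a feedback inhibitor induced by STAT5, was 8.63-fold lower in LPS+TMT (-3.11, SE 0.16, adjusted p = 5.10e-07) and fell by 0.60 in LPS+TET (adjusted p = 0.0102). Pias3, encoding an inhibitor of STAT3, fell by 1.14 in LPS+TMT and by 1.61 in LPS+TET.

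Among 8 genes known to respond to interleukin-10 in macrophages, 4 fell and 1 rose in each organotin group (median log2 fold changes -0.37 in LPS+TMT and -0.31 in LPS+TET). Of all genes 27.8% passed in LPS+TMT and 50.8% in LPS+TET. The genes of this list are all brighter than the median gene, and among such genes 50.9% passed in LPS+TMT and 66.7% in LPS+TET. The count is therefore not read as a result about these genes in either group. Socs3, encoding the inhibitor that binds gp130, fell by 0.87 in LPS+TET (adjusted p = 3.87e-05) and gave -0.17 in LPS+TMT (adjusted p = 0.233). Its probe set is one whose name marks possible binding of related transcripts. Etv3, encoding a repressor, fell by 1.47 in LPS+TMT and by 0.61 in LPS+TET. Bcl3, encoding a nuclear IkB protein, fell by 1.01 in LPS+TMT and fell by 1.70 in LPS+TET. Ddit4, which is also a stress gene, rose by 1.03 in LPS+TMT and by 0.86 in LPS+TET.

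Of 18 measured regulators of transcription or mRNA decay of the cytokine genes, 11 fell and 3 rose in LPS+TMT, and 10 fell and 3 rose in LPS+TET (median log2 fold changes -0.64 and -0.34). Over all genes, 13.4% fell and 14.3% rose in LPS+TMT, and 23.4% fell and 27.4% rose in LPS+TET. These regulators are all brighter than the median gene. Among such genes 24.2% fell and 26.7% rose in LPS+TMT, and 42.5% fell and 24.2% rose in LPS+TET, 66.7% in either direction. Rel, encoding the NF-kB subunit c-Rel, had 10.05, 9.79 and 9.81 in LPS+TMT, 11.78, 11.66 and 11.80 in LPS+TET, and 12.11, 12.07 and 11.99 in LPS. It fell by 2.17 in LPS+TMT (adjusted p = 2.74e-07) and by 0.31 in LPS+TET (adjusted p = 0.0237), the same order of the groups as for Il6, Il10, Il12b and Il23a. Irf1, encoding an interferon regulatory factor, fell by 1.06 in LPS+TMT and by 2.06 in LPS+TET. Cebpd, encoding a C/EBP factor, fell by 1.21 in LPS+TMT and by 1.17 in LPS+TET. Crem, encoding a cyclic AMP-responsive factor, was 4.20-fold higher in LPS+TET (2.07, SE 0.10, adjusted p = 1.26e-07) and gave -0.05 in LPS+TMT (adjusted p = 0.794).

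**Figure D5:**
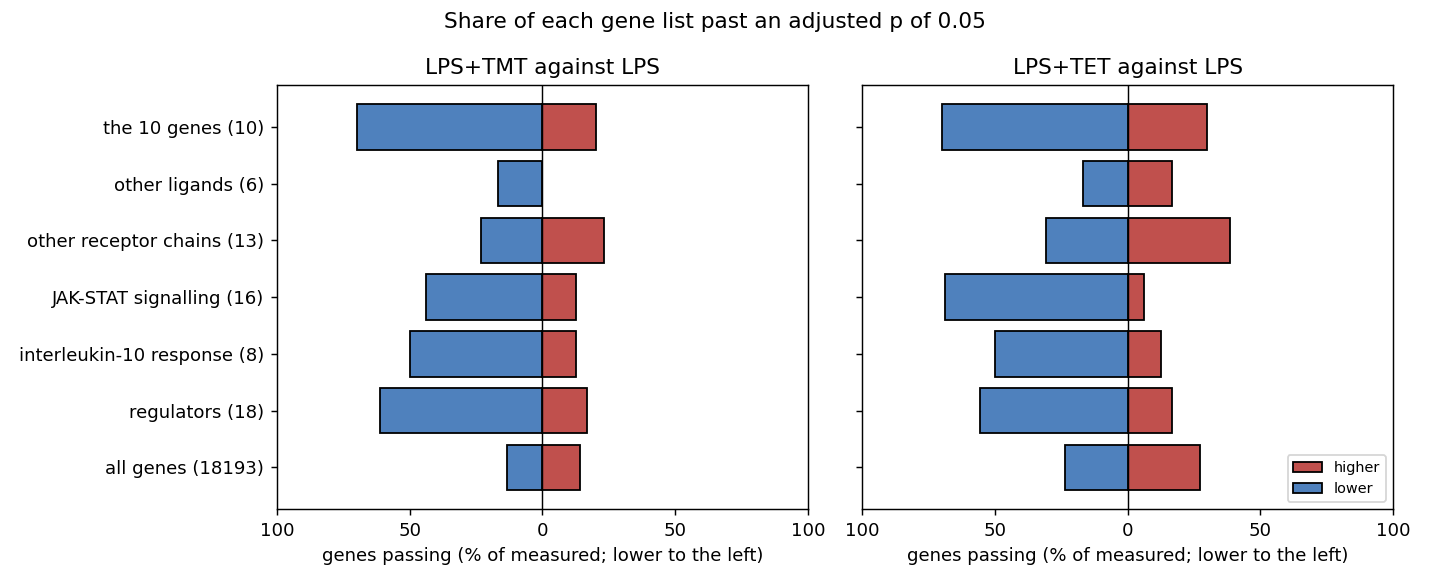
Percent of the measured genes of each list (number in brackets) that passed as higher (red, to the right) or lower (blue, to the left) in LPS+TMT against LPS and LPS+TET against LPS. Among the 10 genes, 7 are lower in each comparison, against 13.4% and 23.4% of all genes and 24.2% and 42.5% of the genes at or above the median brightness.

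The genes whose pattern over the 9 arrays was most like that of 4 members were sought among 9097 genes at or above the median brightness, by Pearson correlation. The arrays fall into 3 groups, so these correlations mainly describe the order and spacing of the groups. For Il6 they were Nfkbiz (r = 0.996), Spsb1 (0.994) and Nr4a3 (0.989). For Il10 they were Cxcl2 (0.996), Map3k8 (0.996) and Fzd5 (0.993). For Il12b they were Rhob (0.998), Pvr (0.995) and Adss (0.993). For Il23a they were 3110009E18Rik (0.989), Rnd1 (0.989) and Rasa2 (0.985). Among these, Nfkbiz had fold changes close to those of Il6, with -1.16 in LPS+TMT and -0.36 in LPS+TET, and Rhob had fold changes close to those of Il12b, with -2.69 and -0.55 in the same groups.

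Markers of the labelled cell type were bright, with summed signals (log2 of the sum over 10 of 10 macrophage markers) of 16.7 to 16.9 in LPS+TMT, 16.5 to 16.6 in LPS+TET and 16.8 in LPS. In LPS+TMT 2 of these markers rose and 2 fell, and in LPS+TET 1 rose and 5 fell. Summed signals of 3 of 4 B cell markers were 6.79 to 6.86 in LPS+TMT, 7.24 to 7.43 in LPS+TET and 6.80 to 6.93 in LPS, and those of 4 of 5 T cell markers were 7.59 to 7.68, 7.97 to 8.23 and 7.84 to 7.90 in the same groups. Summed signals of 4 of 5 dendritic cell markers were 6.74 to 7.03 in LPS+TMT, 6.92 to 7.53 in LPS+TET and 6.74 to 6.99 in LPS. Those of 5 of 5 stromal markers were 10.5 to 10.9, 9.67 to 9.95 and 10.2 to 10.4, and those of 4 of 5 neutrophil markers 8.58 to 8.76, 8.31 to 8.49 and 8.99 to 9.13 in the same groups. The stromal sum in LPS+TET is carried by Pdgfrb, which fell by 1.59, whereas 3 of the 5 stromal markers rose there, Col1a1 by 0.62, Col1a2 by 0.91 and Dcn by 0.63. In LPS+TMT 1 stromal marker rose and 0 fell. In LPS+TET 3 B cell, 2 T cell, 2 dendritic cell, 2 erythroid and 1 megakaryocyte markers rose, and 2 neutrophil and 1 megakaryocyte markers fell. In LPS+TMT 2 T cell and 2 neutrophil markers fell, and beside these, the stromal marker and the macrophage markers no marker passed there. The lowest values of the arrays were 2.05 to 2.15, so a listed signal does not show that a cell type was present. No B cell, dendritic cell or erythroid marker reached the median gene, 6.82, on any array (highest 6.48, 6.41 and 6.71). The LPS+TET arrays had the narrower range, and its part in the rises of these dim markers was not tested. The part of the markers in the changes of the 10 genes was not tested either. Summed signals of 2 of 3 NK cell markers were 8.52 to 8.90, 8.41 to 8.80 and 8.54 to 8.77, and those of 4 of 4 mast cell and basophil markers 6.29 to 6.69, 6.56 to 6.86 and 6.45 to 6.53 in the same groups. Those of 3 of 4 erythroid markers were 7.12 to 7.23, 7.38 to 7.55 and 7.19 to 7.38, and those of 3 of 3 megakaryocyte markers 12.9 to 13.1, 12.7 to 12.9 and 13.0 to 13.1. The megakaryocyte sum is carried by Pf4 (mean 12.91), whereas the group means of Itga2b and Gp9 were 6.49 to 7.22. Likewise the NK cell sum is carried by Prf1 (mean 8.57), whereas the group means of Ncr1 were 4.30 to 4.65.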

How the data were processed

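Gene expression of LPS-primed bone marrow derived macrophages was measured on 9 Affymetrix arrays, 3 per group, from total RNA amplified and labelled with biotin per the labels' protocols. The deposited table holds log2 values of 45037 probe sets, which the authors made with RMA and affy per the submitters' processing notes; the sources used here give neither versions nor genome build, and do not say whether all arrays were processed together. The base of the logarithm was taken from the values. The table was used as deposited. The platform annotation named 1 gene for 34945 probe sets, several for 932 and none for 9160. The last 2 kinds were left out. The brightest probe set, by its mean over all arrays, stood for each of 18193 genes.

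A linear model was fitted with limma 3.58.1 in R 4.3.3 to all 9 arrays (6 residual and 3.99 prior degrees of freedom), and the fit was tested on simulated data with known changes. Benjamini-Hochberg adjustment of the two-sided p-values ran over all genes of a comparison, and intervals are 95% intervals of the same model. Differences between subunits used exact permutation tests (scipy 1.17.1). Groups came from the sample titles. The 10 genes and the lists were chosen with earlier results of these data known. All 10 genes are named, as are up to 4 genes per list, taken by their smallest adjusted p against LPS, plus Il10rb, Il6ra, Il12rb1, Stat3, Stat4, Socs3 and Rel, and the 3 genes most alike by correlation to each of Il6, Il10, Il12b and Il23a. Some genes of the lists were not analysed here. The counts of passing genes, over all genes and among the 10, and the fold changes of the 10 genes were recomputed under 19 alternatives (18 for Lif and Il12a). The gene lists, subunit differences, correlations and marker sums were not recomputed. Arrays have no read depth; their number limits the precision.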

Additional observations from a re-analysis of the deposited data

How the results depend on the processing

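Of 564 recomputed fold changes of the 10 genes, 545 kept their direction and their side of the threshold, 18 kept the direction and no longer passed, 1 newly passed and 0 changed sign. Those that no longer passed were Ebi3 (8 settings), Il6st (2) and Il10ra (2) in LPS+TMT against LPS and Il10 (6) in LPS+TET against LPS, and Il10ra newly passed in LPS+TET against LPS+TMT with the mean over probe sets. Leaving out 1 array at a time gave 7 to 9 passing genes of the 10 in LPS+TMT against LPS, 9 to 10 in LPS+TET against LPS and 8 in LPS+TET against LPS+TMT. Over all genes, testing all probe sets called 10335, 20915 and 20995 probe sets in LPS+TMT against LPS, LPS+TET against LPS and LPS+TET against LPS+TMT, where 5049, 9247 and 9425 genes were called; more features were tested there. Array weights called 8756 genes in LPS+TMT against LPS. Restricted to genes no dimmer than the median gene, 6066 passed in LPS+TET against LPS and 6270 in LPS+TET against LPS+TMT, where fewer genes were tested and Lif was left out. Il12a has no value without probe sets named _s_at, _x_at or _a_at.

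Same-numbered replicates of different groups deviated together in 3 of 9 pairs (correlation over 0.1, range -0.15 to 0.31). Replicates with different numbers did so in 3 of 18 pairs (range -0.30 to 0.26). The numbers were not taken as a pairing, but so few pairs do not decide whether there was one. With the replicate number as a block, 4859, 8956 and 9119 genes passed in the 3 comparisons, and 8, 10 and 8 of the 10 genes, with Ebi3 in LPS+TMT lost (0.27, adjusted p = 0.0774). The arrays carry no depth, and dim genes, such as Lif and Il23a in LPS+TMT, are limited by an unknown background.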
